A study of Mus musculus with 10 samples.

Results

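Btg4 and 9 genes for subunits of the CCR4-NOT complex, 10 listed genes in all, were followed by their normalised expression across 10 RNA-seq libraries of mouse oocytes and early embryos. Their rows were found by gene name, and 9 of the 10 had one among the 21437 genes of the expression table (Cnot9 stood there under its older symbol Rqcd1, and Cnot1 was not analysed here). CCR4-NOT removes the poly(A) tail of mRNAs, which is the step that opens most cytoplasmic mRNA to decay. Its scaffold Cnot1 carries 2 kinds of catalytic subunit, each encoded by a pair of related genes: Cnot7 or Cnot8, and Cnot6 or Cnot6l. Cnot2 and Cnot3 form the NOT module, Cnot9 is a docking surface for proteins that bring the complex to mRNAs, and Cnot10 belongs to a module at the scaffold's other end. BTG4 is an oocyte member of the BTG/Tob family that binds the Cnot7 and Cnot8 proteins, and is known as the adaptor that brings the complex to maternal mRNAs when they are cleared.

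The libraries came from MII oocytes (oocytes arrested at the second meiotic metaphase) and from embryos at the 2-cell and the 4-cell stage, each as control and with Ago2 knocked down (Ago2 kd), with 2 libraries in each of the 5 groups. Ago2 encodes a small RNA-guided nuclease and was knocked down by injecting zygotes, not deleted from the genome. Its own level was not analysed here. The paper's text describes siRNA and antibodies against Ago2 injected together, a double treatment, while some figure legends name siRNA or antibodies. A scrambled siRNA is the negative control named, no control antibody is mentioned, and what the sequenced controls received is not stated. Differences between Ago2 kd and control may thus include effects of antibody or injection, which were not tested. No injection or culture is described for the oocytes, so oocytes and embryos may differ in handling too, which was not tested. The labels give ICR as the strain of all libraries, while the growth protocol describes F1 females mated with F1 males. The paper's methods name ICR females for the oocytes and the F1 cross for the embryos. Oocytes and embryos may thus differ in strain as well as in stage, and the part of strain was not tested. Donors were 7 weeks old and received 6.5 IU of PMSG followed by 5 IU of hCG after 47 h. All oocytes and embryos therefore come from hormone-stimulated females, the genotype of oocytes and controls is labelled wild type, and the number of oocytes or embryos behind a library is not stated. Nothing in the labels says that the replicates were separate collections, so the p-values measure only the spread between these libraries, which may be technical.

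Values are FPKM, fragments scaled to exon length and to the mapped fragments of the library. They are shares of a library's RNA, so fewer cells and less RNA per cell cannot be told apart, and a gene can also move because the rest of the RNA does. The summed FPKM was 450124 and 458874 in oocytes and between 178681 and 326352 in the 8 embryo libraries, and the depth in reads is unknown. Oocyte markers (8 genes such as Gdf9 and Zp3) summed to between 8865 and 10933 FPKM in oocytes and markers of the 2-cell stage (7 of 8 genes in the table) to between 604 and 815 FPKM in 2-cell controls, above their sums in every other group. Of 10 cumulus cell genes only Foxl2 was in the table, listed at 0 throughout, and 5 genes of other cell types together reached at most 7.07 FPKM. Genes used by every cell were not evenly measured: Gapdh lay between 0 and 0.167 FPKM, and Actb was under 10 FPKM in 8 libraries. A value near 0 is therefore given as listed, not as absence.

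Replicates were often far apart. Only genes with at least 1 FPKM in 2 or more of the 10 libraries were compared, which leaves out genes seen in 1 library. Among those with at least 10 FPKM in 1 library of a group, some had replicates over 10-fold apart. Their share was 9.32% in oocytes, 15.3% in 2-cell controls, 15.7% in 2-cell Ago2 kd, 13.9% in 4-cell controls and 24.4% in 4-cell Ago2 kd embryos. By the rule of 10 FPKM and 10-fold Btg4, Cnot7 and Cnot8 had no such pair of replicates, Cnot6 and Cnot6l had 1, Cnot9 had 2 and Cnot2 had 3. Cnot6 had at least 1 FPKM in only 1 library and is not among the genes of these shares. Cnot3 and Cnot10 never reached 10 FPKM, so the rule could not flag them. Their widest pairs were 5.83 and 0.61 FPKM for Cnot3 in oocytes, and 0 and 5.7 FPKM for Cnot10 in 4-cell controls. Values are given library by library below for that reason, replicate 1 first.

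**Figure D1:**
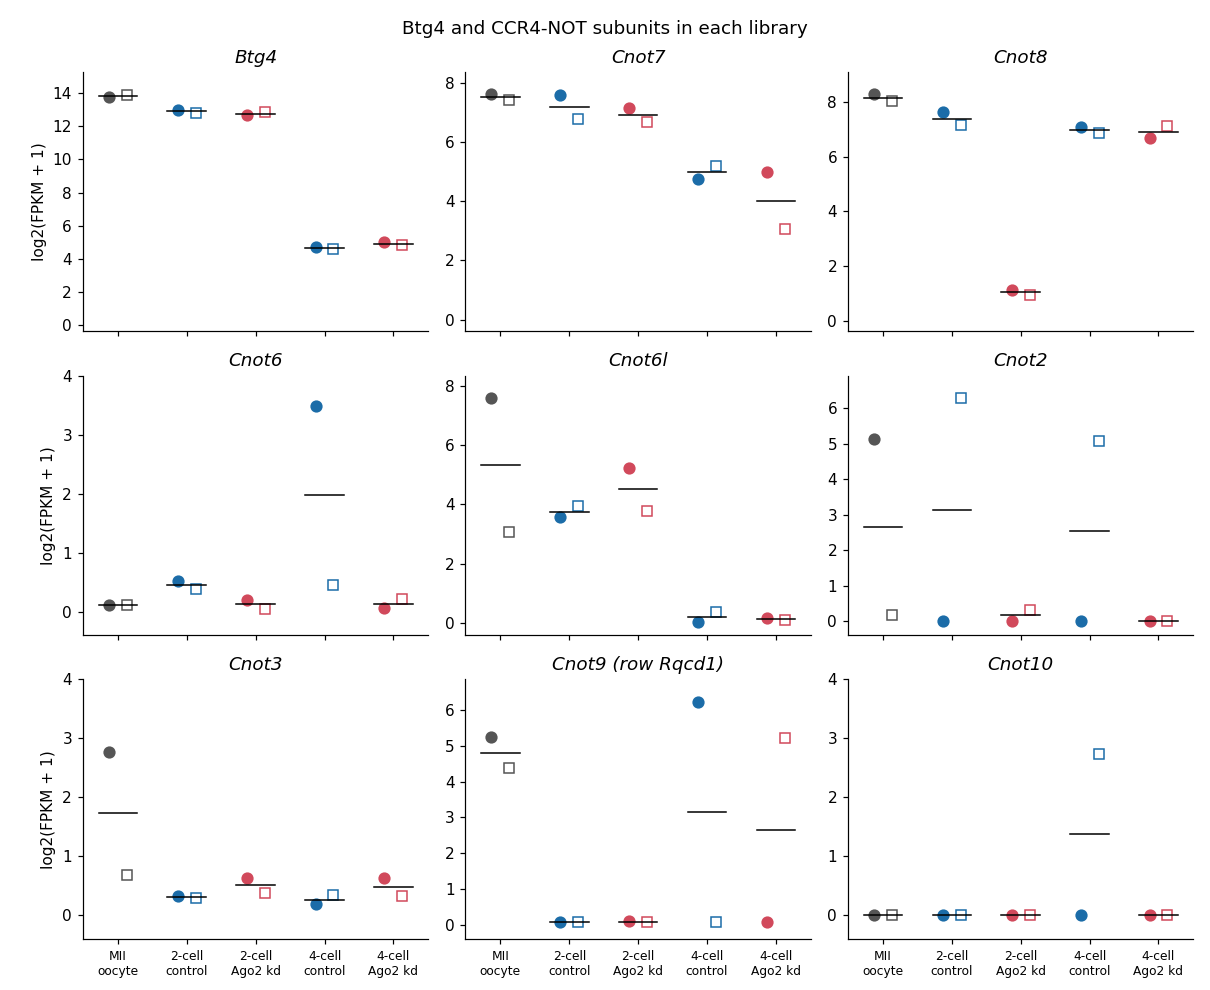
Level of each of the 9 measured genes as log2(FPKM + 1) in the 5 groups, with a filled circle for replicate 1, an open square for replicate 2 and a line at their mean; each panel has its own axis. Btg4 stays high through the 2-cell groups and is low in all 4-cell libraries, Cnot8 is near 1 FPKM only in the pair of 2-cell Ago2 kd libraries, and replicates lie apart for Cnot2 in 3 groups and for Cnot9 at the 4-cell stage.

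Cnot7 and Cnot8 encode alternative nuclease subunits, so it matters whether reads of one could be counted for the other. Their coding sequences were 69.2% identical over 879 aligned positions, with no identical run longer than 20 bases. The first 30 coding bases of both (GENCODE M21, GRCm38) are shown because the Ago2 kd result turns on telling these genes apart, with the 10 bases that differ in capitals:
Cnot7 (chr8:40510102-40510131, minus strand): atgccAgcAgcaACCgtagaTCaTagCcaA
Cnot8 (chr11:58109650-58109679, plus strand): atgccTgcGgcaCTTgtagaAAaCagTcaG
Of all 50-base stretches in the chosen Cnot8 transcript, 9.85% also occur in the processed pseudogene Gm18860, which has no row in the table, and 5.05% of those in Cnot7 also occur in transcripts of its chromosome neighbour Zdhhc2. Neither shared any with the other.

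The same comparison for the second catalytic pair gave 73.1% identity over 1659 positions and again no identical run over 20 bases, with 8 differing bases in the first 30:
Cnot6 (chr11:49702623-49702652, minus strand): atgccCaaAgaaaaGtaCgaGccCccTgaC
Cnot6l (chr5:96134093-96134122, minus strand): atgccAaaGgaaaaAtaTgaTccTccAgaT
Neither Cnot6 nor Cnot6l shared a 50-base stretch with transcripts of another gene, and the same held for Btg4, Cnot2 and Cnot10. Cnot3 shared 32.1% of its stretches with other genes, most of them with the processed pseudogene Gm9207, so its low values below are uncertain.

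Btg4 (ENSMUSG00000032056.10, chr9:51060901-51119875, plus strand) was by far the most abundant member. It reached 14252 and 15377 FPKM in the oocyte libraries, where it ranked 2 among all genes. In 2-cell controls it was listed at 8212 and 7265 FPKM and in 2-cell Ago2 kd embryos at 6520 and 7517 FPKM, and it ranked 1 in each of these 4 libraries. It took between 3.17% and 4.18% of the summed FPKM of the oocyte and 2-cell libraries. In 4-cell controls 25.5 and 23.5 FPKM were left, and in 4-cell Ago2 kd embryos 31.1 and 27.4 FPKM. The oocyte, 2-cell and 4-cell values did not overlap, while the 2-cell control and 2-cell Ago2 kd values did.

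From MII oocytes to 2-cell controls Btg4 fell by 0.94 on the log2(FPKM + 1) scale (SE 0.16, limma adjusted p = 0.00694), and it was the only member called among the 6 tested. The background was 14.2% of the 8726 tested genes called lower and 6.54% called higher. This call depends on how the libraries are scaled: the log2 difference was -0.53 (adjusted p = 0.43) after median scaling, and turned to +0.53 (adjusted p = 0.23) after quantile normalization and +0.25 (adjusted p = 0.53) after scaling to equal sums. It was also lost when only oocytes and 2-cell controls were fitted (adjusted p = 0.179) and without replicate 2 of the oocytes (adjusted p = 0.065) or of the 2-cell controls (adjusted p = 0.0513). Of all calls in this step 31.5% were higher, against 47.5% with quantile normalization and 60.3% with sum scaling.

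From 2-cell to 4-cell controls Btg4 fell by 8.25 on the log2 scale (SE 0.16, limma adjusted p = 1.47e-06), a ratio of 303 on the FPKM + 1 scale. Under every alternative run the difference lay between -8.78 and -8.16 and passed the threshold. From oocytes to 4-cell controls it fell by 9.18 (SE 0.16, adjusted p = 7.03e-07). Oocyte markers moved with it, from sums between 1678 and 2044 FPKM in 2-cell controls to between 14.4 and 23.2 FPKM in 4-cell controls, and their part in the result was not tested.

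The levels of Btg4 in Ago2 kd and control embryos could not be told apart at either stage. The log2 difference of Ago2 kd from control was -0.14 at the 2-cell stage (95% confidence interval -0.52 to 0.23, limma adjusted p = 1) and 0.25 at the 4-cell stage (-0.13 to 0.62, adjusted p = 0.549). At the 4-cell stage both Ago2 kd libraries were above both controls, as were the summed oocyte markers, at between 53.4 and 68.7 FPKM, and the summed 2-cell markers, at between 25.2 and 32.2 FPKM against 2.47 to 7.35 FPKM in controls. Their part in the Btg4 value was not tested. Within Ago2 kd embryos Btg4 fell by 7.86 from the 2-cell to the 4-cell stage (SE 0.16, adjusted p = 2.05e-06). The change in the Ago2 kd effect between the stages was 0.39 (SE 0.22, adjusted p = 0.54).

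The 3 genes whose log2 level over the 10 libraries was most like that of Btg4, among 4724 compared, were Rfpl4 (Pearson r = 0.9995), Taf9b (r = 0.9991) and Nlrp9a (r = 0.999). All 3 were listed at 0 in the 4 libraries of 4-cell embryos. The libraries fall into stages, and each coefficient is a description of a level high up to the 2-cell stage and low at the 4-cell stage.

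In every library the subunit with the highest FPKM was Cnot7 or Cnot8, the genes of the nuclease that binds BTG4. Cnot7 (ENSMUSG00000031601.16, chr8:40492540-40515847, minus strand) was listed at 195 and 169 FPKM in oocytes, 191 and 109 in 2-cell controls, 143 and 102 in 2-cell Ago2 kd, 26 and 35.9 in 4-cell controls and 30.7 and 7.27 in 4-cell Ago2 kd embryos. All 4-cell values lay below all others, and the groups of the earlier stages overlapped except for oocytes against 2-cell Ago2 kd embryos.

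From the 2-cell to the 4-cell stage Cnot7 fell by 2.20 on the log2 scale in controls (SE 0.64, limma adjusted p = 0.0328) and fell by 2.91 in Ago2 kd embryos (SE 0.64, adjusted p = 0.0122). The control call was close to the threshold and was lost in 10 of 17 alternatives, with an adjusted p of up to 0.155: without the filter on low values, under median scaling, and without any 1 oocyte, 2-cell control, 2-cell Ago2 kd or 4-cell control library. The Ago2 kd call was lost with only those groups fitted (adjusted p = 0.105) and without replicate 1 of the 2-cell Ago2 kd embryos (adjusted p = 0.066), and without replicate 2 of the 4-cell Ago2 kd embryos the difference was -1.94 (adjusted p = 0.026). From oocytes to 4-cell controls Cnot7 fell by 2.53 (SE 0.64, adjusted p = 0.0151), a call lost in 6 of 17 alternatives (median, quantile and sum scaling, without either oocyte library and without replicate 1 of the 4-cell controls), with an adjusted p of up to 0.113. Ago2 kd and control embryos differed in Cnot7 by -0.26 at the 2-cell stage (95% confidence interval -1.77 to 1.26, adjusted p = 1) and by -0.96 at the 4-cell stage (-2.48 to 0.55, adjusted p = 0.564).

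Cnot8 (ENSMUSG00000020515.13, chr11:58104153-58118594, plus strand) had another course. It was listed at 308 and 260 FPKM in oocytes, 195 and 140 in 2-cell controls, 134 and 115 in 4-cell controls and 101 and 136 in 4-cell Ago2 kd embryos. In 2-cell Ago2 kd embryos it was listed at 1.17 and 0.928 FPKM, below each of the other 8 libraries, whose lowest value was 101 FPKM. Its rank among all genes was 177 and 266 in 2-cell controls and 4849 and 5383 in 2-cell Ago2 kd embryos.

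Set against the 2-cell controls, this was a log2 difference of -6.34 (SE 0.30, 95% confidence interval -7.07 to -5.62, limma adjusted p = 0.000767), or a ratio of 81.3 on the FPKM + 1 scale. Cnot8 was the only member called among the 6 tested, in a comparison where 0.218% of tested genes were called lower and 0.332% higher. The difference lay between -7.18 and -6.11 under every alternative run. The call was lost only when the fit held no more than the 4 libraries compared (adjusted p = 0.185), where none of the 8726 genes was called (277 higher and 265 lower at an unadjusted limma p under 0.05). The summed 2-cell markers were also lower in these Ago2 kd libraries, at between 335 and 554 FPKM against 604 to 815 FPKM in controls, while the oocyte markers overlapped, at between 1532 and 1724 FPKM against 1678 to 2044 FPKM. Their part in the Cnot8 result was not tested.

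At the 4-cell stage the Cnot8 difference of Ago2 kd from control was -0.08 (SE 0.30, 95% confidence interval -0.80 to 0.64, limma adjusted p = 1). The Ago2 kd effects at the 4-cell and 2-cell stages differed by 6.27 log2 units (SE 0.43, 95% confidence interval 5.25 to 7.29, adjusted p = 0.00204), with 0.642% of tested genes called in that direction, and the difference passed in every alternative run. Among Ago2 kd embryos alone, Cnot8 rose by 5.86 between the stages (SE 0.30, adjusted p = 7.04e-05). The background for this step was 18.8% called higher and 16.5% called lower. In controls Cnot8 changed by -0.77 to the 2-cell stage (SE 0.30, adjusted p = 0.129) and by -0.41 on to the 4-cell stage (SE 0.30, adjusted p = 0.327), and neither step passed. Over both steps it fell by 1.18 (SE 0.30, adjusted p = 0.0164), a call lost after quantile normalization (-0.53, adjusted p = 0.205) and sum scaling (-0.35, adjusted p = 0.369) and without replicate 1 of the oocytes (adjusted p = 0.0763) or replicate 2 of the 4-cell controls (adjusted p = 0.0596).

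**Figure D2:**
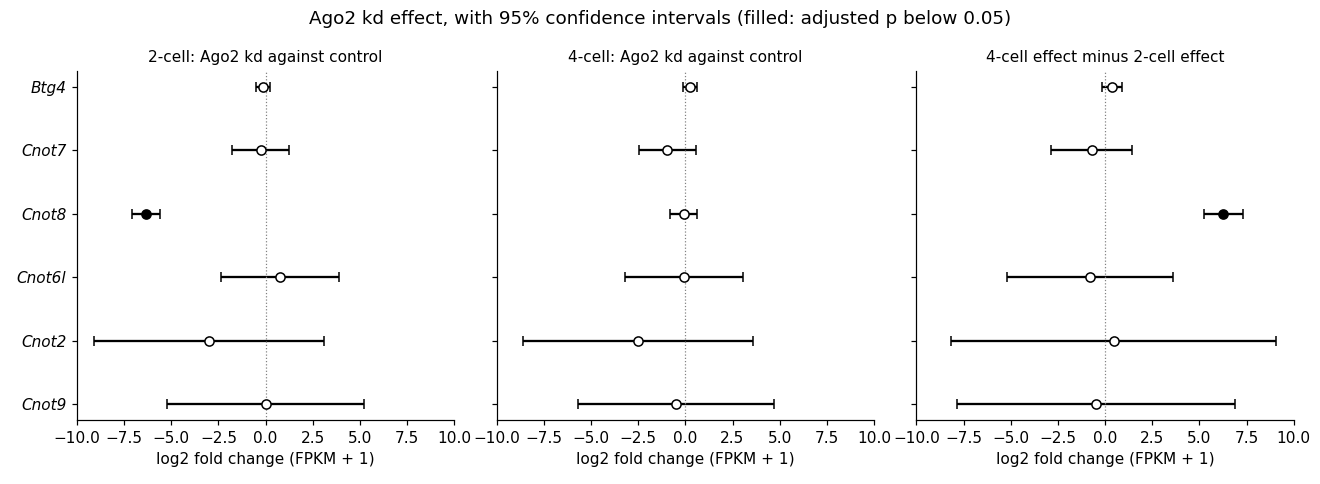
Ago2 kd minus control as log2 fold change of FPKM + 1 for the 6 tested members at the 2-cell stage, at the 4-cell stage, and as the difference between the stages; points are limma estimates, bars 95% confidence intervals, and filled points have an adjusted p below 0.05. Cnot8 at the 2-cell stage (-6.34) and its change between stages (6.27) are the only filled points, the Btg4 intervals are narrow and include 0, and Cnot2 and Cnot9 have intervals that span many log2 units.

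Few genes had the same shape. Of 567 genes with at least 10 FPKM in all libraries other than the 2-cell Ago2 kd pair, 4 were at least 10-fold lower in both libraries of that pair than in any other library: Cnot8, Eif4a2, Emc3 and Pole3. These genes were picked by that shape. The same count was 22 of 603 for oocytes, 0 of 540 for 2-cell controls, 3 of 579 for 4-cell controls and 3 of 600 for 4-cell Ago2 kd embryos. By correlation over the 10 libraries the genes most like Cnot8 were Eif4a2 (a translation initiation helicase, Pearson r = 0.949), Pole3 (a DNA polymerase epsilon subunit, r = 0.935) and Kif18a (a mitotic kinesin, r = 0.872). Eif4a2 was listed at 0.788 and 1.05 FPKM in 2-cell Ago2 kd embryos against 44.7 and 72.7 FPKM in 2-cell controls.

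**Figure D3:**
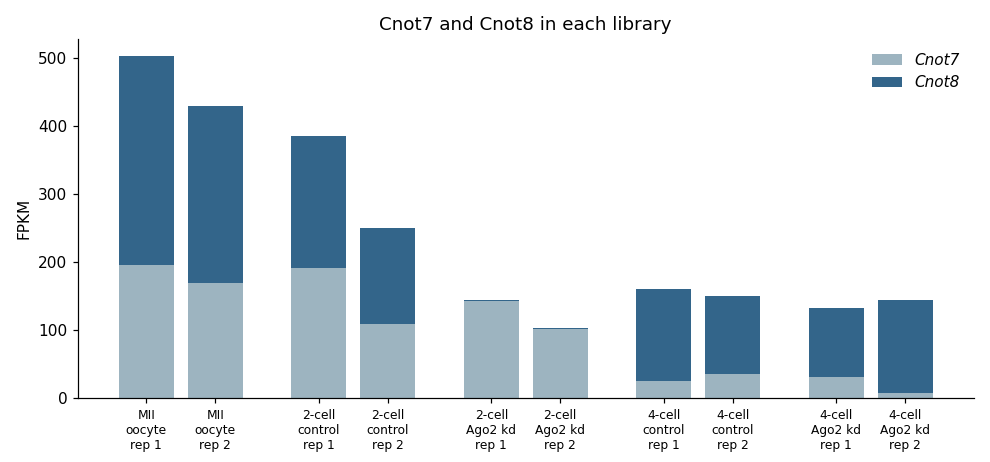
FPKM of Cnot7 (light) and Cnot8 (dark) stacked for each of the 10 libraries. The sum falls from 503 and 430 FPKM in oocytes to 160 and 151 FPKM in 4-cell controls, and the Cnot8 portion, 0.813% and 0.903% of the pair, is a thin line in the 2-cell Ago2 kd libraries.

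On the length-scaled FPKM, Cnot7 and Cnot8 together reached 503 and 430 FPKM in oocytes, 385 and 250 in 2-cell controls, 144 and 103 in 2-cell Ago2 kd, 160 and 151 in 4-cell controls and 132 and 144 in 4-cell Ago2 kd embryos. The 2-cell Ago2 kd sums were below both 2-cell control sums and within or below the range of the 4-cell groups. Cnot8 made up 61.2% and 60.6% of the pair in oocytes, 50.5% and 56.2% in 2-cell controls, 83.8% and 76.2% in 4-cell controls and 76.7% and 94.9% in 4-cell Ago2 kd embryos. In 2-cell Ago2 kd embryos it made up 0.813% and 0.903%. The ratio of Btg4 to the pair was 21.3 and 29.1 in 2-cell controls, 45.2 and 73.2 in 2-cell Ago2 kd embryos, and between 0.156 and 0.236 in the 4-cell libraries. These sums and ratios were not tested.

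Of the second catalytic pair, Cnot6l (ENSMUSG00000034724.18, chr5:96070333-96164171, minus strand) was the gene seen before the 4-cell stage. It was listed at 190 and 7.44 FPKM in oocytes, 11 and 14.3 in 2-cell controls and 36.8 and 12.7 in 2-cell Ago2 kd embryos, and at no more than 0.295 FPKM in any 4-cell library. The oocyte replicates were over 10-fold apart and straddled the 2-cell values, whereas the 4-cell values lay below all others. Between oocytes and 4-cell controls Cnot6l fell by 5.11 log2 units (SE 1.32, limma adjusted p = 0.0166), with the call lost when only those groups were fitted (adjusted p = 0.116) and without replicate 1 (adjusted p = 0.0754) or replicate 2 (adjusted p = 0.0634) of the 4-cell controls. The size of the difference rested on the oocyte libraries and the pseudocount: it was -2.86 without replicate 1 of the oocytes, -7.36 without replicate 2, and -7.32 with a pseudocount of 0.1.

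Within Ago2 kd embryos Cnot6l fell by 4.34 (SE 1.32, limma adjusted p = 0.0407), and the difference was -6.64 with a pseudocount of 0.1. This call was lost in 9 of 17 alternatives, with an adjusted p of up to 0.181: without the filter on low values and without any 1 of the 2-cell or 4-cell libraries. In controls the 2-cell to 4-cell difference of -3.54 (SE 1.32, adjusted p = 0.0738) did not pass, but passed in 5 alternatives: with a pseudocount of 0.1 (-5.74, adjusted p = 0.0213), quantile normalization (-3.82, adjusted p = 0.0482), only the groups compared (adjusted p = 0.016) and without either oocyte replicate (adjusted p = 0.00748 and 0.0073). Its Ago2 kd differences were 0.74 at the 2-cell stage (95% confidence interval -2.38 to 3.87) and -0.05 at the 4-cell stage (-3.18 to 3.07). The intervals are too wide to tell a change of several log2 units in either direction.

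Cnot6 (chr11:49671503-49712723, minus strand), the other gene of the pair, was under 0.5 FPKM in 9 libraries and at 10.3 FPKM in replicate 1 of the 4-cell controls. Cnot6l made up at least 96.3% of the summed pair in the 6 oocyte and 2-cell libraries. In the 4-cell libraries the pair summed to at most 0.669 FPKM outside that 1 replicate.

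**Figure D4:**
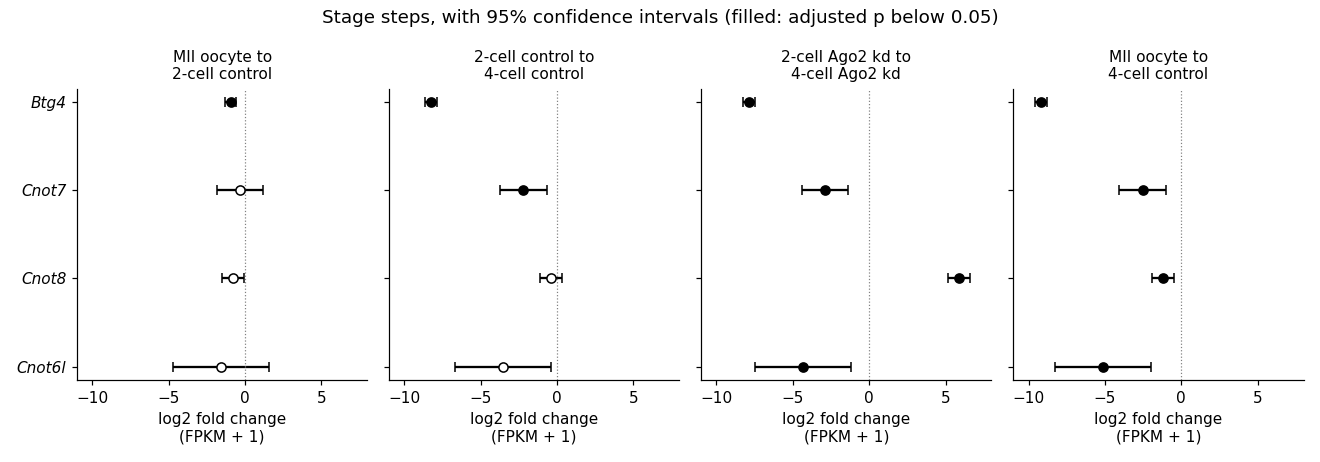
Log2 fold change of FPKM + 1 for Btg4, Cnot7, Cnot8 and Cnot6l over the control steps, the step within Ago2 kd embryos and the whole control course; points are limma estimates, bars 95% confidence intervals, and filled points have an adjusted p below 0.05. Btg4 is at -8.25 from 2-cell to 4-cell controls and at -7.86 in the same step of Ago2 kd embryos, and Cnot8 is the only one of the 4 above 0, at 5.86 within Ago2 kd embryos.

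The NOT module and the remaining subunits were measured unevenly. Cnot2 (chr10:116485161-116581511, minus strand) was at 34.2 FPKM in 1 oocyte library, 76.9 in 1 2-cell control and 32.4 in 1 4-cell control, with the other replicate at 0.134, 0 and 0. In Ago2 kd embryos it was listed at 0 and 0.248 FPKM at the 2-cell stage and at 0 in both 4-cell libraries. Cnot9 (chr1:74506058-74530842, plus strand) was at 36.7 and 19.7 FPKM in oocytes, at no more than 0.065 FPKM in the 4 libraries of 2-cell embryos, and in the 4-cell groups at 74.1 and 0.054 FPKM in controls and at 0.061 and 36.5 FPKM in Ago2 kd embryos. Neither gene passed in any of 7 comparisons, their lowest limma adjusted p being 0.754 for Cnot2 and 0.194 for Cnot9. The latter was for oocytes against 2-cell controls, whose Cnot9 values did not overlap, and it was 0.0208 with only those groups fitted. The values of Cnot2 in oocytes and controls, and of Cnot9 at the 4-cell stage, were too far apart between replicates to read an order.

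Cnot3 (chr7:3645268-3661109, plus strand) was at 5.83 and 0.61 FPKM in oocytes and below that in all embryos, and Cnot10 (chr9:114585878-114640184, minus strand) was listed at 0 in 9 libraries and at 5.7 FPKM in replicate 2 of the 4-cell controls. Together with Cnot6 they had at least 1 FPKM in only 1 library each and were left out of the test by the filter. Without the filter none of the 3 was called in any comparison.

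Counted over the listed members, 1 of 6 tested was called lower from oocytes to 2-cell controls, 2 from 2-cell to 4-cell controls (between 1 and 3 over the alternatives, background 17.5% lower and 21.1% higher) and 4 from oocytes to 4-cell controls (background 26.3% lower). In the last comparison 45.5% of all calls were higher, against 56.2% with sum scaling. No member was called higher in a control step. In the step within Ago2 kd embryos 3 were called lower and 1 higher (background 16.5% lower and 18.8% higher). The gene called higher was Cnot8, from its 2-cell Ago2 kd values of 1.17 and 0.928 FPKM. Between Ago2 kd and control 4-cell embryos none of the 6 was called, none had an unadjusted limma p under 0.05, and the background was 2.77% lower and 1.23% higher. The median log2 difference of the tested members from oocytes to 4-cell controls was -2.09 against 0 over all tested genes, and from 2-cell to 4-cell controls it was -1.41 against 0.24. With 6 genes, the first median is the midpoint of Cnot7 (-2.53) and Cnot9 (-1.65). The second is the midpoint of Cnot7 (-2.20) and Cnot2 (-0.61). Both thus rest in part on a gene whose replicates were too far apart to read an order.

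The other genes of deadenylation were a list of 33 with the PAN2-PAN3 and PARN nucleases, poly(A)-binding proteins, BTG/Tob proteins and mRNA-binding recruiters. The list also held Noct, a relative of the Cnot6 nucleases, and Angel1 and Angel2. Whether these genes remove poly(A) tails was not examined here. The list had 29 rows, of which 24 were tested. Pan2, Parn, Btg3 and Samd4 were not among these rows, so the counts below do not cover the PAN2 and PARN nucleases. From oocytes to 2-cell controls 9 were called lower and 0 higher (1 higher at an unadjusted limma p under 0.05), with a median of -1.36 against -0.06 over all genes. The background was 14.2% lower and 6.54% higher. These counts were not tested against that background and were not repeated under other scalings. Over all genes the lower calls of this step went from 1240 to 626 with sum scaling, and the median to 0.24. Among the 9 were genes at few FPKM already in oocytes. Tob1 was at 1.17 and 3.2 FPKM there and at 0 in both 2-cell controls, and Btg1 went from 4.2 and 3.1 FPKM to 0.508 and 0 FPKM. The lowest log2 difference of the 24 was that of Noct, which went from 263 and 284 FPKM to 0.885 and 0.909 FPKM (-7.18, limma adjusted p = 0.000917). The highest was Pabpc1l, an oocyte poly(A)-binding protein, at 0.544 and 0.515 FPKM and then 20.8 and 13 FPKM, a difference of 3.51 that did not pass (adjusted p = 0.0659) but passed with only those groups fitted (adjusted p = 0.0248) and without either 2-cell Ago2 kd library (adjusted p = 0.0015 and 0.00207).

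From 2-cell to 4-cell controls 4 of the 24 tested were called lower and 6 higher, beside a background of 17.5% lower and 21.1% higher. These counts were not tested against that background. The highest was Btg1, a relative of Btg4, with 0.508 and 0 FPKM before and 27.6 and 17.3 FPKM after (log2 difference 4.22, limma adjusted p = 0.00044, or 6.48 with a pseudocount of 0.1). The lowest was Angel2, with 277 and 233 FPKM at the 2-cell stage and 14.4 and 7.78 FPKM at the 4-cell stage (log2 difference -4.45, adjusted p = 0.000233).

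In the Ago2 kd comparisons 0 of the 24 were called at the 2-cell stage (2 higher and 0 lower at an unadjusted limma p under 0.05). At the 4-cell stage 2 were called, Cnot11 lower and Pnldc1 higher. The background was 0.218% lower and 0.332% higher at the 2-cell stage, and 2.77% lower and 1.23% higher at the 4-cell stage. Cnot11, the partner of Cnot10 in the complex, was at 29.3 and 21.1 FPKM in 4-cell controls and at 3.01 and 5.64 FPKM after Ago2 kd, a log2 difference of -2.32 (SE 0.42, adjusted p = 0.0315). The values did not overlap and the difference lay between -2.69 and -1.96 over the alternatives, but the call was lost in 9 of 17: with only the groups compared (adjusted p = 0.295), with the replicate block (adjusted p = 0.0642), and without any 1 of the oocyte, 2-cell control or 4-cell control libraries or replicate 1 of the 4-cell Ago2 kd embryos (adjusted p of up to 0.0921). Pnldc1, a PARN-like nuclease, was at 7.56 and 5.87 FPKM in 4-cell Ago2 kd embryos and listed at 0 in the other 8 libraries. It passed the filter on low values only through the group where it is high, so it had to differ, and neither a fold nor a p is given. For Cnot11 the Ago2 kd effects at the stages differed by -2.52 (SE 0.60, adjusted p = 0.101), which did not pass (0.0474 with sum scaling).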

How the data were processed

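RNA-seq was performed by the authors on MII oocytes and on control and Ago2 kd embryos at the 2- and 4-cell stage. Per the submitters' notes and the paper's methods, reads were aligned to mm10 (GRCm38) with HISAT2 2.1.0, and FPKM were computed with StringTie; CASAVA 1.4 is also named. The values are the FPKM the authors deposited, 1 per gene name. How transcripts were reduced to 1 row is not given in the sources used here. Samples were grouped by their labels.

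FPKM were tested as log2(FPKM + 1) with limma 3.58.1 (R 4.3.3): 1 mean per group over 10 libraries, 5 residual degrees of freedom, variances moderated with a trend, two-sided, for the 8726 genes that reached 1 FPKM in 2 or more libraries, with Benjamini-Hochberg adjustment over them and a threshold of 0.05. On data simulated for the 2-cell Ago2 kd comparison over 8726 genes, 54 of 100 genes changed by 3 log2 units and 90 of 100 changed by 6 were recovered, with 6 unchanged genes called. The simulated noise was normal, drawn from the limma fit itself and equal in all groups of a gene. Real groups differed in replicate spread, so these numbers check the code and are not error rates for the data. Alternatives were a pseudocount of 0.1, no filter, median, quantile and sum scaling, a replicate block, only the groups compared, and each library left out. All members are named, other deadenylation genes by their calls and extremes. Positions, transcripts and sequences are from GENCODE M21, with 1 principal transcript per gene, compared with Biopython 1.88. The members and lists were chosen with earlier results of these data known.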

Additional observations from a re-analysis of the deposited data

Results flagged for a closer look

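For Cnot8 the Ago2 kd effect differed between the stages. The 4-cell effect minus the 2-cell effect was 6.27 log2 units (SE 0.43, limma adjusted p = 0.00204). Both 2-cell Ago2 kd libraries, at 1.17 and 0.928 FPKM, lay below both controls, at 195 and 140 FPKM, while at the 4-cell stage 101 and 136 FPKM after Ago2 kd overlapped 134 and 115 FPKM in controls.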

How the results depend on the processing

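Over 37 results and 17 alternatives each, 552 values kept their side of the threshold and, where a direction was compared, their direction. Of the rest, 49 lost the call, 11 gained it and 17 changed sign. A value that lost its call and also changed sign is counted only among the 17. Btg4 from oocytes to 2-cell controls did so under quantile and sum scaling. No called value changed to a call in the other direction. For Cnot2 and Cnot9 only the lowest adjusted p over 7 comparisons was followed, so their changes of sign are not counted. From oocytes to 4-cell controls the Cnot2 difference went from -0.13 to 0.082 with quantile normalization and 0.34 with sum scaling. The number of members called from oocytes to 2-cell controls (1) was 0 under median, quantile and sum scaling, and between 0 and 1 with 1 library left out. From 2-cell to 4-cell controls (2) it was 1 without the filter and under median scaling, 3 with a pseudocount of 0.1, quantile normalization or only the groups compared, and between 1 and 2 with 1 library left out. From oocytes to 4-cell controls (4) it was 2 under quantile and sum scaling, and between 2 and 4 with 1 library left out, and in the step within Ago2 kd embryos (4) between 2 and 4. For 2-cell Ago2 kd against control (1) it was 0 with only the groups compared. An unchanged count can hide a change of gene. From oocytes to 2-cell controls the gene called was Cnot9 and not Btg4 with only the groups compared. Without replicate 2 of the oocytes it was Cnot6l (log2 difference -3.81) and not Btg4. From 2-cell to 4-cell controls Cnot6l took the place of Cnot7 when either oocyte library was left out. From oocytes to 2-cell controls the log2 difference turned positive for Btg4 (0.53 with quantile, 0.25 with sum scaling), Cnot7 (0.073, 0.80 and 0.85 with median, quantile and sum scaling) and Cnot8 (0.36 and 0.41 with quantile and sum scaling), and with 1 library left out it ranged from -3.81 to 0.68 for Cnot6l and from -0.73 to 0.069 for Cnot7. At the 4-cell stage the Ago2 kd difference turned to 0.22 for Cnot8 with median scaling and 0.0039 for Cnot6l with quantile normalization, and with 1 library left out it ranged from -0.29 to 0.14 for Cnot8, from -0.21 to 0.10 for Cnot6l and from -1.93 to 0.0087 for Cnot7. Leaving out 1 library also gave -0.66 to 0.14 for Cnot7 at the 2-cell stage and -1.68 to 0.26 for its change in effect between stages. Sum scaling moved the median of all genes to 0.24 from oocytes to 2-cell controls and to 0.33 from oocytes to 4-cell controls, and the unscaled median was 0.24 from 2-cell to 4-cell controls and 0.18 within Ago2 kd embryos. Where a library is left out its group keeps 1 library, which is assumed to vary like the others. The cause was not tested for any of these. Cnot9 passed in 1 setting, with only the groups compared (adjusted p = 0.0208). A fit with the replicate number as a block changed no member's call but lost that of Cnot11 at the 4-cell stage (adjusted p = 0.0642). For Cnot8 at the 2-cell stage it gave -6.34 (adjusted p = 0.0047). Deviations of same-numbered libraries correlated between -0.093 and 0.092, so the numbers were not taken as pairs. Read depth is unknown, so no counting error can be given.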
